A study of Homo sapiens with 24 samples.

Results

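The G2/M and mitosis genes are 46 genes whose products carry a cell from the end of DNA replication through chromosome segregation and cytokinesis. They were chosen by name from what is known of their roles, at a time when earlier results of these data were known. All 46 were matched to a single entry of the 60605 genes in the count table, and all 46 were among the 22326 genes that passed the filter on low counts. They are spread over 16 chromosomes. They fall into 9 roles, from the cyclin-CDK complexes and mitotic kinases to the spindle checkpoint, the kinetochore, the spindle motors, cytokinesis, chromosome structure and the transcription factors FOXM1 and MYBL2.

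Nascent transcription was measured by PRO-seq, which maps RNA polymerases that are engaged on a gene, in T47D cells, a luminal breast cancer line that expresses the estrogen receptor. The cells were dTAG-TRPS1 Clone 28, Clone 35 and Clone 39, each a line grown from 1 edited cell in which the only TRPS1 protein made carries the degradation tag. TRPS1 is a repressive GATA-family transcription factor, and dTAG-13 links the tag to a ubiquitin ligase so that the protein is degraded. Cells of each clone were kept for 90 minutes in 100 nM dTAG-13 or in 0.1% v/v DMSO, and each of the 6 groups had 4 replicates, giving 24 libraries. Tag and editing were shared by treated and control cells, and no untagged parental cells are compared here. Replicates were treated and collected at different times of 1 day, DMSO and dTAG-13 dishes together, so p-values cover the spread between these dishes of a clone.

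Total counts were between 3226718 and 9575803 per library. Of the luminal markers, 8 of 8 were read in every library, with a summed level of 3738 to 6108 CPM (counts scaled to library size with TMM factors). The 9 basal, stromal, blood and endothelial markers summed to 26.0 to 39.2 CPM. Among them KRT5, KRT14, KRT17 and COL1A2 had a median of 0.227 CPM or less. TP63, a basal marker, and COL1A1, a stromal marker, were the highest and were read in every library, at medians of 14.1 and 12.5 CPM. TRPS1 itself had 23280 to 69958 counts and a log2 change with dTAG-13 of 0.19 ± 0.083 (SE). Its adjusted p by edgeR was 0.733, and 6.65e-04 with dishes paired by clone and replicate number. Because dTAG-13 removes the protein, transcription of TRPS1 does not check the depletion.

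As background, G2/M genes are kept low in resting and early cycling cells and are switched on together late in the cycle. Many carry a cell-cycle genes homology region (CHR) near the start site, which is bound by the MuvB complex, together with CCAAT boxes bound by NF-Y; MYBL2 and FOXM1 join MuvB when the genes are active. Cyclin B with CDK1 drives entry into mitosis, PLK1 and the Aurora kinases build the spindle, the checkpoint holds anaphase until kinetochores are attached, and the anaphase-promoting complex with CDC20 then releases separase. G1/S genes, by contrast, are mostly controlled by E2F sites.

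RefSeq promoter windows (GRCh38.p14, 250 bases before to 50 after the start) were held for 39 of the 46 members. The CHR letters TTTGAA were found on either strand in 28 of 39 members (71.8%), against 14.5% of 13437 tested genes with a window. They lay within 50 bases of the start in 59.0% of members and 4.40% of tested genes; that distance was chosen after their positions were seen. CCAAT was found in 30 of 39 members (76.9%) against 42.4%, and both motifs were in 56.4% of members against 6.01%. The E2F form GGCGGGAA was in 7.69% of members, 5.94% of tested genes and 31.4% of 35 G1/S genes, of which 5.71% held the CHR letters. None of the 3 motifs contains another. A match is a description of the window, and no match says only that these letters are not in it. AURKA, BIRC5, TTK, UBE2C, TPX2, RACGAP1 and FOXM1 had no window.

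**Figure D1:**
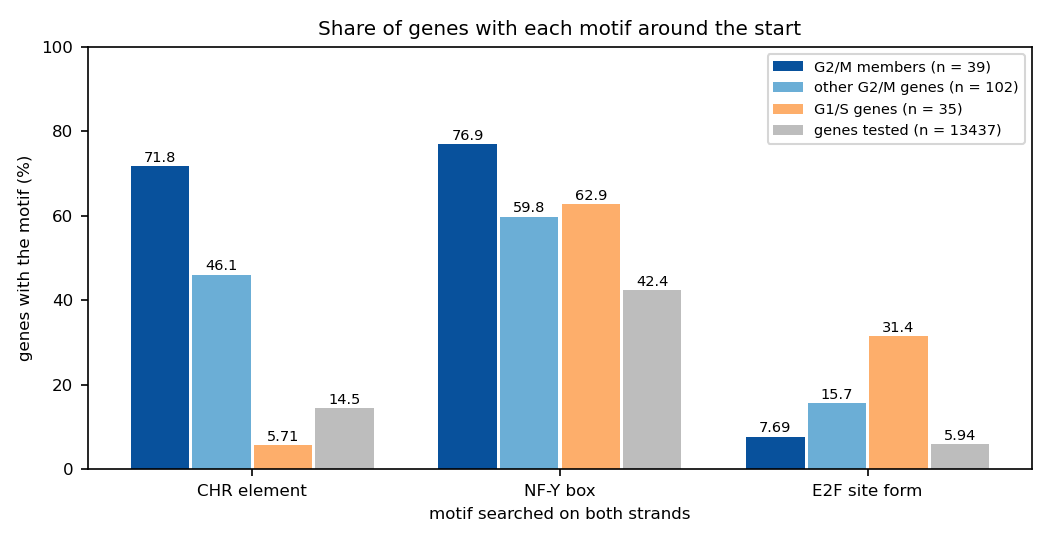
Bars give the percent of genes (vertical axis) whose promoter window holds each motif on either strand, for 39 G2/M members, 102 other G2/M genes, 35 G1/S genes and 13437 tested genes. The CHR bar of the members stands at 71.8% beside 14.5% for tested genes and 5.71% for G1/S genes, and the E2F bar is highest, at 31.4%, for G1/S genes.

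The windows below are those of the members that differed with the smallest p between replicate numbers, the main source of variation described further on, with CCNB2, which is taken up again under treatment, and CCNB1, which lacks the CHR letters. Each runs from 250 bases before to 30 bases after the RefSeq start, 5′ to 3′ on the gene's strand. Capitals mark TTTGAA or its complement TTCAAA, and CCAAT or its complement ATTGG. The places are ESPL1 chr12:53268049-53268328 (plus strand), NUSAP1 chr15:41332631-41332910 (plus strand), ANLN chr7:36389612-36389891 (plus strand), KIF11 chr10:92592880-92593159 (plus strand), DLGAP5 chr14:55191556-55191835 (minus strand), CCNB2 chr15:59104896-59105175 (plus strand) and CCNB1 chr5:69166900-69167179 (plus strand). For NUSAP1 and KIF11 the GENCODE gene starts upstream of the RefSeq start, so the window lies inside the annotated gene.
ESPL1: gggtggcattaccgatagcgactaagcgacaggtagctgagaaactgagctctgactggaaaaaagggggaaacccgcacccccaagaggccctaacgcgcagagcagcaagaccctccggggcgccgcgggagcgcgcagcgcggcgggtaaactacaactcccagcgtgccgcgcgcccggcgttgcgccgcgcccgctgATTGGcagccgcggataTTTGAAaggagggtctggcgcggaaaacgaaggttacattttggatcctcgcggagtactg
NUSAP1: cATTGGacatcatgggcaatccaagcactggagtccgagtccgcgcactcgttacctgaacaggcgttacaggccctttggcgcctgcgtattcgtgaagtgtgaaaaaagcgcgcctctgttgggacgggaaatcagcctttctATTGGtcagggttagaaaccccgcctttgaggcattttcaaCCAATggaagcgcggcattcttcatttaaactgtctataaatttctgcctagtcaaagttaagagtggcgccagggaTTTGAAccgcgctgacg
ANLN: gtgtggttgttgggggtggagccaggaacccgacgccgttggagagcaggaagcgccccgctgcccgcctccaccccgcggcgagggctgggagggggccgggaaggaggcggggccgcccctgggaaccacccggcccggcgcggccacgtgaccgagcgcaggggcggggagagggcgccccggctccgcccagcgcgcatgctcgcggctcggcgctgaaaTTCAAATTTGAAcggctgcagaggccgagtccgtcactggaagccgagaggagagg
KIF11: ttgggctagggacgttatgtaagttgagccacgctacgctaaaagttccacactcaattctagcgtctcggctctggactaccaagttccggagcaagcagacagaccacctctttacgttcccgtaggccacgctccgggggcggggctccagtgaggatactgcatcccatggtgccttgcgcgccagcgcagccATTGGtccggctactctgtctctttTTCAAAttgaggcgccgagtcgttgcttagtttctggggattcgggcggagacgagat
DLGAP5: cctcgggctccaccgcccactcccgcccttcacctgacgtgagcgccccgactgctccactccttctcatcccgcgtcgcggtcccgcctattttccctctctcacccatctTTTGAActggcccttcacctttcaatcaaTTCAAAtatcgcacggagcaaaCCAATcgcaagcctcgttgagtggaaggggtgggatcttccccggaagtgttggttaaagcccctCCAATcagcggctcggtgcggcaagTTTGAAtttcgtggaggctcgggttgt
CCNB2: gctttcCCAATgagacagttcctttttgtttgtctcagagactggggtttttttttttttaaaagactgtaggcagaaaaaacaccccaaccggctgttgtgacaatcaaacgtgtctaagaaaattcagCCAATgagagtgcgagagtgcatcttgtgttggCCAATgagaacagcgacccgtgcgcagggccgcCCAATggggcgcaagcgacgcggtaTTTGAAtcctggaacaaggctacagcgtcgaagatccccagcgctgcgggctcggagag
CCNB1: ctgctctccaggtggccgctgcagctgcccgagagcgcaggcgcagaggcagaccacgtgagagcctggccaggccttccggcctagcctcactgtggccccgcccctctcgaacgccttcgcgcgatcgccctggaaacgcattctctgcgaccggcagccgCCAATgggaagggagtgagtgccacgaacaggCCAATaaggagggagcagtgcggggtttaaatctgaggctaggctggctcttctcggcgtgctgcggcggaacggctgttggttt
ESPL1, KIF11 and CCNB2 show 1 CHR match just upstream of the start beside 1, 1 and 4 CCAAT matches. In ANLN the match and its complement adjoin and no CCAAT box was found, DLGAP5 holds 3 CHR matches, and NUSAP1 has its match just after the start with 3 CCAAT matches.

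The members were transcribed over a wide range of levels. Per kilobase of gene, mean level over the 24 libraries was highest for UBE2C, the E2 enzyme of the anaphase-promoting complex, at 8.77 CPM per kb, followed by CDK1 at 5.66, SMC4 at 4.84, CCNB1 at 4.34 and PLK1 at 4.23 CPM per kb. It was lowest for NUF2 and SPC25, which belong to the same kinetochore complex, at 0.489 and 0.492 CPM per kb, and for the kinetochore motor CENPE at 0.535 CPM per kb. CDC20 had the lowest median count, 63 (32 to 124 per library), followed by AURKB at 74 (27 to 192), and ECT2 was among the most counted with 506 to 2158. Of the 46, 21 overlap no other annotated gene, 21 overlap a gene on the other strand and 8 one on the same strand. How the counting treated strand is not given in the sources used here, so reads of such pairs may be mixed.

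Depletion of TRPS1 for 90 minutes was compared with DMSO to ask whether the G2/M genes respond to loss of the factor. None of the 46 members passed the test in the 3 clones together (edgeR quasi-likelihood test, Benjamini-Hochberg adjusted p under 0.1 over all genes tested), where 0.551% of all genes were called. At an unadjusted p under 0.05 the count was also 0 of 46 in edgeR, beside 1411 of all 22326 genes, and 0 members in DESeq2. In this fit differences between replicate numbers stay in the error. The log2 changes ran from -0.11 to 0.12 with a median of 0.02, and the median of all genes tested was -0.0018. The 95% interval held 0 for all 46, and for 45 of them, all but CENPF, it lay between -0.40 and 0.42.

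CDK1 shows the pattern at the level of libraries. In Clone 28 it read 79.8, 96.4, 114 and 123 CPM under DMSO in replicates 1 to 4 and 83.4, 97.4, 112 and 140 CPM under dTAG-13. In Clone 35 the values were 69.9, 72.6, 87.7 and 109 CPM against 69.0, 70.9, 106 and 109 CPM, and in Clone 39 they were 75.6, 85.2, 101 and 95.1 CPM against 74.0, 87.8, 85.6 and 100 CPM. Treated and control libraries overlap in every clone, and in both the values are mostly higher in replicates 3 and 4. The log2 change of CDK1 was 0.03 ± 0.11 (SE).

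The 3 members with the smallest p did not pass. ECT2, the exchange factor that starts the cleavage furrow, had a log2 change of 0.07 ± 0.038 (SE, adjusted p = 0.891) and stood above DMSO in 10 of the 12 dish pairs. CENPA, the centromeric histone, had -0.05 ± 0.042 (adjusted p = 0.984), and CENPE had 0.12 ± 0.10 (adjusted p = 0.991). For the cyclins, the phosphatase CDC25B and the mitotic kinases the log2 changes were of both signs: CCNA2 -0.10, CCNB1 0.02, CCNB2 0.08, CDC25B -0.11, PLK1 0.02, AURKA -0.04 and AURKB 0.02. The transcription factors FOXM1 and MYBL2 had log2 changes of 0.05 and 0.02.

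Pairing dishes by clone and replicate number narrowed the median standard error of the members from 0.11 to 0.045, and 0 of 46 were called again, where 2.33% of all genes were. With that block 2 members had an unadjusted p under 0.05, and the lowest adjusted p was 0.289, for CENPE. Clone by clone, 0 of 46 passed in Clone 28, where 0.0537% of all genes were called, and 0 in Clones 35 and 39, where 0% were. An unadjusted p under 0.05 was reached by 0 members in any clone by edgeR without the block or by DESeq2. Of all 22326 genes, 1078, 646 and 754 reached it in Clones 28, 35 and 39 by edgeR without the block. With the block 2, 4 and 3 members did in Clones 28, 35 and 39. The smallest p in Clone 28 belonged to the phosphatase CDC25B (-0.22 ± 0.19), SMC4 (-0.07 ± 0.065) and MAD2L1 (-0.16 ± 0.15), in Clone 35 to SMC4 (0.11 ± 0.065), ECT2 (0.10 ± 0.067) and CENPE (0.26 ± 0.18), and in Clone 39 to UBE2C (0.31 ± 0.20), PRC1 (-0.22 ± 0.15) and ECT2 (0.10 ± 0.069), and none of these passed. A difference between clones in the response passed for 0 of the 46 (0% of all genes called). At an unadjusted p under 0.05 there were 0 members by edgeR and by DESeq2, and 4 with the block. By edgeR without the block 407 of all 22326 genes were at that level.

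**Figure D2:**
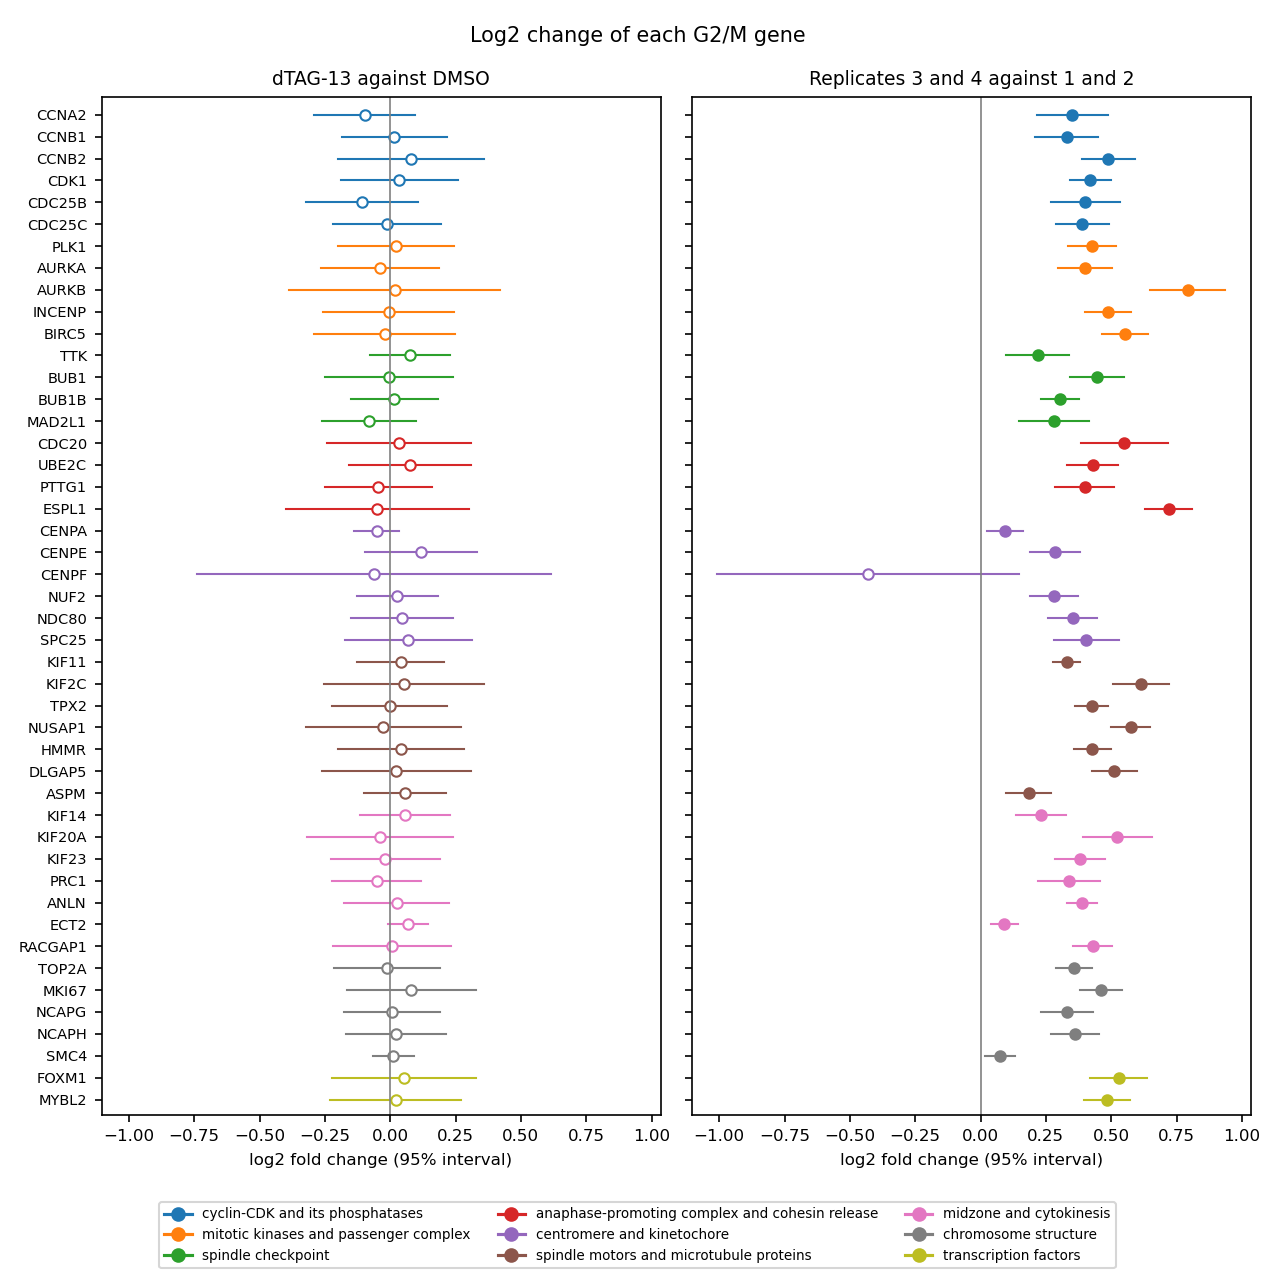
Points are log2 fold changes of the 46 members (rows, coloured by role) with 95% intervals, for dTAG-13 against DMSO (left) and for replicates 3 and 4 against 1 and 2 (right), on the same axis; filled points passed an adjusted p of 0.1. On the left all 46 points are open and within 0.12 of 0, and on the right 45 are filled and to the right of 0, with CENPF alone on the left at -0.43.

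The replicate number, under which dishes of a clone were collected together within the day, was compared next. All 46 members differed between the 4 numbers in a fit that also held the 6 groups (edgeR quasi-likelihood test), where 37.2% of all genes were called. The contrast of replicates 3 and 4 with 1 and 2 was chosen with earlier results of these data known. In it 45 of 46 members were higher and 0 lower, beside 20.7% of all genes called higher and 20.1% called lower. The median log2 difference of the members was 0.40, and that of all genes tested was -0.0002. Labels give no order to the numbers and do not say that a number marks the same hour in each clone. The fit took the DMSO and dTAG-13 dishes of a clone and number as separate libraries, though they were collected together. Clones with the same number were taken as separate too, though their DMSO libraries deviated from group means together (mean r = 0.231, 12 pairs). If clones shared collections, each number stands for a single collection across clones. Standard errors and p-values of the number contrasts can therefore be too small. In the DMSO libraries alone, without the treated partner dishes, 45 of 46 members had a higher estimate and 40 passed, with a median log2 difference of 0.36. The share of all genes passing in that fit was not counted, and that fit still took the clones as separate.

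Separase, ESPL1, the protease that cuts cohesin at anaphase, had the smallest p. Under DMSO it read 30.6, 35.8, 60.7 and 67.8 CPM in replicates 1 to 4 of Clone 28, 31.2, 33.7, 53.5 and 64.0 CPM in Clone 35 and 29.3, 36.8, 48.5 and 49.7 CPM in Clone 39. Under dTAG-13 it read 37.0, 45.2, 60.5 and 62.9 CPM in Clone 28, 29.6, 37.9, 49.0 and 53.5 CPM in Clone 35 and 25.9, 30.4, 44.3 and 48.6 CPM in Clone 39. In each of the 6 groups both of replicates 3 and 4 stood above both of 1 and 2. The log2 difference was 0.72 ± 0.045 (SE, adjusted p = 1.41e-20), a 1.65-fold higher level.

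The cyclin-CDK genes were higher in replicates 3 and 4, 6 of 6 passing with log2 differences of 0.33 to 0.49. For this and each role below, the background is the 20.7% of all genes called higher in the contrast. CCNB1, which encodes cyclin B, had 33.5 CPM at the lowest, 43.7 at the median and 53.3 at the highest in the 12 libraries of replicates 1 and 2, and 40.6, 52.5 and 62.4 CPM in replicates 3 and 4 (log2 difference 0.33 ± 0.059, SE). CDK1, its kinase, went with it at 69.0, 77.7 and 97.4 CPM against 85.6, 107 and 140 CPM (0.42 ± 0.039). The ranges of both genes overlap between the pairs of numbers. CCNA2, the cyclin of S and G2 phase, had 0.35 ± 0.068 and CDC25B 0.40 ± 0.066.

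The mitotic kinases and the passenger complex held the largest difference. AURKB, the kinase of that complex, had 6.58, 12.8 and 19.8 CPM at the lowest, median and highest in replicates 1 and 2 and 9.06, 21.9 and 37.1 CPM in replicates 3 and 4, a log2 difference of 0.79 ± 0.073 (adjusted p = 8.36e-14) on low counts. BIRC5, the survivin subunit of the same complex, had 0.55 ± 0.043, and AURKA, which matures the spindle poles, 0.40 ± 0.051. PLK1 had 0.42 ± 0.046 and did not overlap between the pairs of numbers in 6 of 6 groups. All 5 genes of this role passed.

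Among spindle motors and microtubule proteins 7 of 7 were higher, by 0.18 to 0.61. NUSAP1, which bundles spindle microtubules, had a log2 difference of 0.58 ± 0.037 (adjusted p = 2.36e-19), with no overlap over the whole series: 44.6 to 77.1 CPM in replicates 1 and 2, and 78.2 to 114 CPM in replicates 3 and 4. TPX2, the activator of AURKA, had 0.42 ± 0.032, KIF11, the motor that pushes spindle poles apart, 0.33 ± 0.026, DLGAP5 0.51 ± 0.042 and HMMR 0.43 ± 0.036. ASPM, a spindle pole protein, had 0.18 ± 0.042, the smallest of this role. In cytokinesis 7 of 7 were higher, with ANLN, which links the furrow to actin, at 0.39 ± 0.029 and KIF23 at 0.38 ± 0.048, and ECT2 was the smallest at 0.09 ± 0.027.

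In the anaphase-promoting complex and cohesin release, 4 of 4 passed, CDC20, its activator, with 0.55 ± 0.083. In the spindle checkpoint 4 of 4 passed, with BUB1 at 0.45 ± 0.052 and MAD2L1 at 0.28 ± 0.068. The transcription factors FOXM1 and MYBL2 had 0.53 ± 0.054 and 0.48 ± 0.044, and neither overlapped within any of the 6 groups. MYBL2 read 52.1, 61.9 and 75.2 CPM at the lowest, median and highest in replicates 1 and 2 and 77.5, 90.0 and 101 CPM in replicates 3 and 4.

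Chromosome structure genes differed among themselves. MKI67, the coat protein of mitotic chromosomes known as a proliferation marker, had 0.46 ± 0.040 and TOP2A, which untangles sister chromatids, 0.36 ± 0.034, while SMC4, a condensin subunit, had 0.07 ± 0.029 (adjusted p = 0.0402). At the kinetochore 5 of 6 passed: NDC80 had 0.35 ± 0.047, and CENPA, at 0.09 ± 0.035, was among the 3 smallest of all members called. CENPF did not pass, at -0.43 ± 0.27 (adjusted p = 0.245). It read 459 CPM in Clone 28 DMSO replicate 1, 482 in Clone 39 DMSO replicate 1, 879 in Clone 39 dTAG-13 replicate 1 and 252 in Clone 35 DMSO replicate 4, and 132 to 193 CPM in the other 20 libraries. Pseudogenes lie inside CENPF on the other strand, and their part in these values was not tested.

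Both of replicates 3 and 4 exceeded both of 1 and 2 in 6 of 6 groups for 20 members, where 2.06% of all genes did so.

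Neighbouring numbers differed by unequal steps. Replicate 2 was above replicate 1 for 22 members called (3.57% of all genes called higher), led by HMMR (0.33 ± 0.053), DLGAP5 (0.38 ± 0.065) and CENPE (0.41 ± 0.071). Replicate 3 was above replicate 2 for 33 (9.46% of all genes), led by ESPL1 (0.53 ± 0.063), BIRC5 (0.45 ± 0.062) and KIF2C (0.49 ± 0.074). Replicate 4 was above replicate 3 for 4 members, HMMR, NUSAP1, TOP2A and CCNB2, where 0.188% of all genes were called higher. No member was called lower in these 3 contrasts, where 3.52%, 9.94% and 0.0941% of all genes were.

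The G2/M score, the mean log2 CPM of the 46 genes in a library, averaged 5.42 ± 0.12 (SD, n = 6) for replicate 1, 5.59 ± 0.13 for replicate 2, 5.81 ± 0.15 for replicate 3 and 5.95 ± 0.15 for replicate 4. The members took 0.272%, 0.283%, 0.329% and 0.363% of the reads. Mean total counts moved with the number as well, from 4563789 and 4930511 in replicates 1 and 2 to 5621435 and 5761523 in replicates 3 and 4, and their part in the result was not tested. Between the dishes of a pair the score differed by 0.0048 ± 0.048 (SD, n = 12 pairs, dTAG-13 minus DMSO), with 8 of 12 pairs higher. In bulk libraries a larger share of cells in G2/M and more transcription per cell cannot be told apart.

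**Figure D3:**
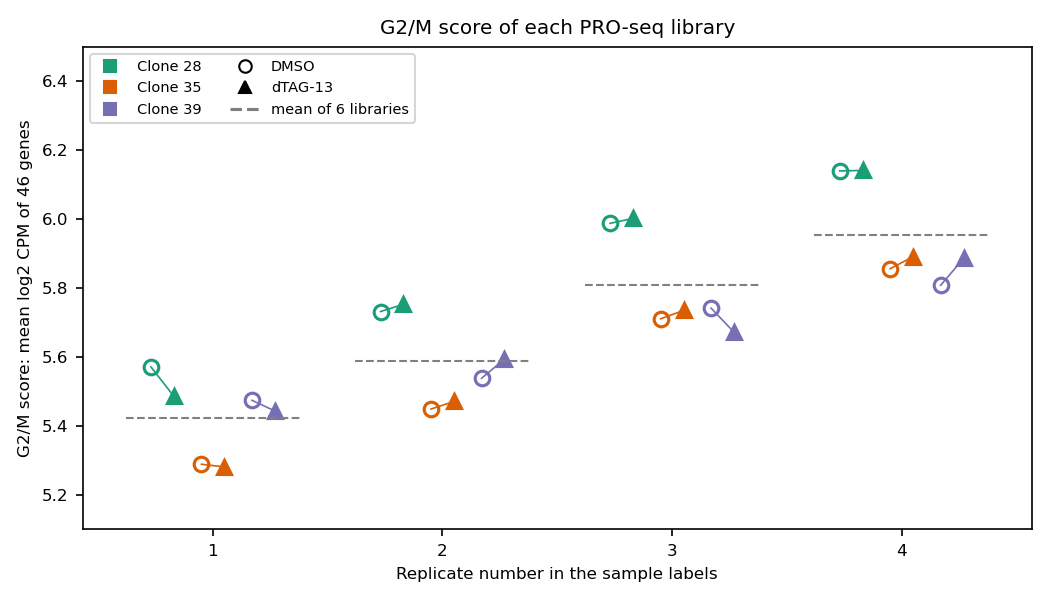
Each point is 1 library, with the replicate number on the horizontal axis and the mean log2 CPM of the 46 genes on the vertical axis; colours are clones, open circles DMSO, triangles dTAG-13, thin lines join dishes collected together and dashed lines are means of 6 libraries. The dashed lines stand at 5.42, 5.59, 5.81 and 5.95, the joined points lie close together, and Clone 28 is the highest at every number.

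The members moved together from library to library. With group means removed, the mean Pearson correlation over the 1035 pairs of members was 0.72 across 24 libraries, and 991 pairs were positive. The mean over all genes tested was 0.0003. Positive and negative pairs cancel in that mean, so it does not show how strongly other genes moved together. These libraries share clones and collections, so the values are descriptive. TPX2 followed the mean of the other 45 members most closely (r = 0.97), then ANLN and RACGAP1 (0.97 and 0.96). SMC4 (0.62), CENPA (0.30) and CENPF (-0.29) followed it least. With the replicate number also removed the mean correlation was 0.16. By sums of squares the number accounted for a median of 60.0% of a member's variation (17.1% over all genes), the clone for 21.7% (21.3%) and treatment for 0.367% (1.48%).

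**Figure D4:**
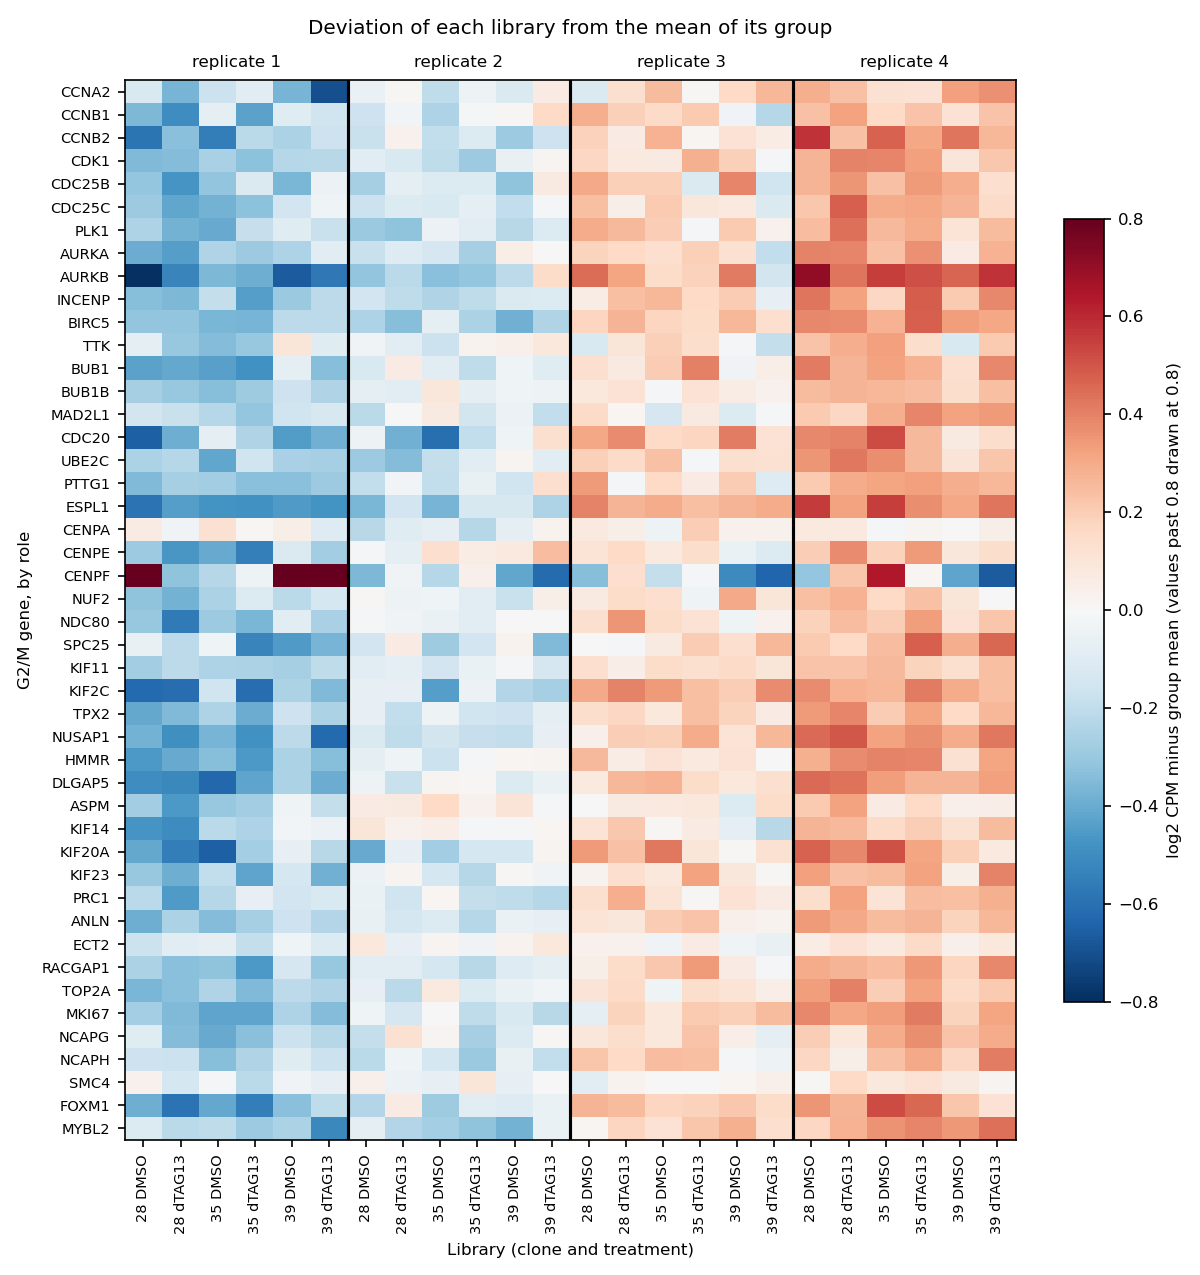
Colour gives log2 CPM minus the mean of the library's own group for the 46 members (rows, by role) in 24 libraries (columns, ordered by replicate number), with values past 0.8 drawn at 0.8. Most rows are blue in replicates 1 and 2 and red in replicates 3 and 4, while the rows of SMC4, ECT2 and CENPA are pale and CENPF is dark red in 3 libraries of replicate 1.

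A difference between clones in the contrast of replicate numbers passed for 0 of 46 members (0.00448% of all genes), with AURKA at the smallest p (adjusted p = 0.362). At an unadjusted p under 0.05 the count was 18 of 46, and 1156 of all 22326 genes. The score of replicates 3 and 4 exceeded that of 1 and 2 by 0.27 and 0.26 in Clone 39 under DMSO and dTAG-13, by 0.41 and 0.45 in Clone 28 and by 0.41 and 0.44 in Clone 35. A score of the G1/S genes, made in the same way, had another order of clones. Under DMSO and dTAG-13 it rose by 0.36 and 0.37 in Clone 39, 0.16 and 0.14 in Clone 28 and 0.27 and 0.27 in Clone 35. The contrast varied with treatment for 2 of 46 members, a share close to the 4.7% of all genes called. For CCNB2 the log2 difference between the pairs of numbers was smaller with dTAG-13 by 0.38 ± 0.085 (interaction -0.38, adjusted p = 0.00432). In Clone 28 CCNB2 read 33.6, 44.4, 57.0 and 75.0 CPM under DMSO and 46.8, 60.4, 61.8 and 69.3 CPM under dTAG-13 in replicates 1 to 4. In Clone 35 it read 27.9, 35.9, 49.7 and 57.0 CPM against 35.4, 38.1, 41.5 and 50.8 CPM, and in Clone 39 31.1, 30.4, 40.3 and 49.9 CPM against 36.6, 36.6, 42.8 and 49.3 CPM. The dTAG-13 dish was above its DMSO partner in each of the 6 pairs numbered 1 and 2, and in 2 of the 6 numbered 3 and 4. NUSAP1 had the opposite sign (0.20 ± 0.068, adjusted p = 0.0928).

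The clones were compared in DMSO to describe the level of these genes before TRPS1 loss. Clone 28 had the highest G2/M score, 5.86 ± 0.25 (SD, n = 4), against 5.58 ± 0.26 in Clone 35 and 5.64 ± 0.16 in Clone 39. Of the 46 members 45 had a lower estimate in Clone 35 than in Clone 28 (median log2 difference -0.27; all genes 0.0094) and 41 a lower one in Clone 39 (median -0.20; all genes -0.0015). In the fit without the replicate number 3 members were lower in Clone 35 (3.01% of all genes called lower) and 0 were higher (2.24%). In Clone 39, 7 were lower, a share close to the 14.3% of all genes called lower, and 0 were higher (12.4% of all genes). With the replicate number in the fit the counts were 32 lower and 0 higher in Clone 35 (6.48% of all genes lower, 5.45% higher) and 25 lower and 2 higher in Clone 39 (18.4% lower, 16.8% higher), the 2 being CENPA and ASPM.

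SMC4 differed most clearly. Under DMSO it read 224, 224, 206 and 220 CPM in Clone 28, 174, 168, 175 and 186 CPM in Clone 35 and 121, 117, 124 and 129 CPM in Clone 39, with no overlap between clones. The log2 difference from Clone 28 was -0.31 ± 0.066 (SE, adjusted p = 0.0026) in Clone 35 and -0.83 ± 0.067 (adjusted p = 1.01e-11) in Clone 39. Among the dTAG-13 libraries the first was -0.14 (adjusted p = 0.326). ECT2 read 209, 248, 240 and 244 CPM in Clone 28, 192, 205, 198 and 212 CPM in Clone 35 and 151, 157, 150 and 158 CPM in Clone 39. Its log2 differences from Clone 28 were -0.22 ± 0.068 (adjusted p = 0.0619) in Clone 35, where the ranges overlap and where the dTAG-13 libraries gave -0.13 (adjusted p = 0.399) and library totals an adjusted p of 0.147, and -0.61 ± 0.069 (adjusted p = 1.53e-08) in Clone 39.

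KIF23, a motor of the spindle midzone, was lower than in Clone 28 in Clone 35 (-0.57 ± 0.18, adjusted p = 0.0983) and in Clone 39 (-0.48 ± 0.18, adjusted p = 0.0688). The other members called lower in Clone 39 were AURKB, NUF2, TTK and NDC80. AURKB read 12.7, 18.2, 31.0 and 37.1 CPM in Clone 28 and 6.58, 9.01, 13.9 and 14.4 CPM in Clone 39, a log2 difference of -1.19 ± 0.37 (adjusted p = 0.0247), and the ranges overlap. NUF2 had -0.50 ± 0.14 and NDC80, its partner, -0.43 ± 0.17, and the checkpoint kinase TTK -0.35 ± 0.14. Among the dTAG-13 libraries NUF2 had -0.28 (adjusted p = 0.146) and NDC80 -0.29 (adjusted p = 0.276), and TTK had an adjusted p of 0.108 by DESeq2. Without the filter on low counts the calls of KIF23 (adjusted p = 0.304 in Clone 35 and 0.204 in Clone 39) and NDC80 (0.243) were lost, and with library totals so were those of KIF23 in Clone 35 (0.158) and NDC80 (0.113). Without Clone 28 DMSO replicate 4 the count in Clone 39 was 3 and AURKB had an adjusted p of 0.102, and without Clone 39 DMSO replicate 2 the count was 4. In Clone 35 the count was 1 without any of Clone 28 DMSO replicates 2, 3 or 4 or Clone 35 DMSO replicates 1 or 3.

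Neighbouring genes moved with some of these members. Of the 40 nearest tested genes around AURKB on chromosome 17, 33 were called lower in Clone 39 than in Clone 28, with a median log2 difference of -0.93, and around SMC4 on chromosome 3 it was 24 of 40, with a median of -0.55. For ECT2, on the same chromosome, 16 of 40 were called lower (median -0.21). The neighbours of NUF2, TTK, NDC80 and KIF23 had medians of -0.05, 0.04, -0.15 and -0.14. In Clone 35 against Clone 28 the neighbours of SMC4 had a median of 0.03 and those of ECT2 0.05, and those of KIF23 had -0.21, with 34 of 40 lower and 3 called lower. DNA copy number was not measured here and its part was not tested.

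**Figure D5:**
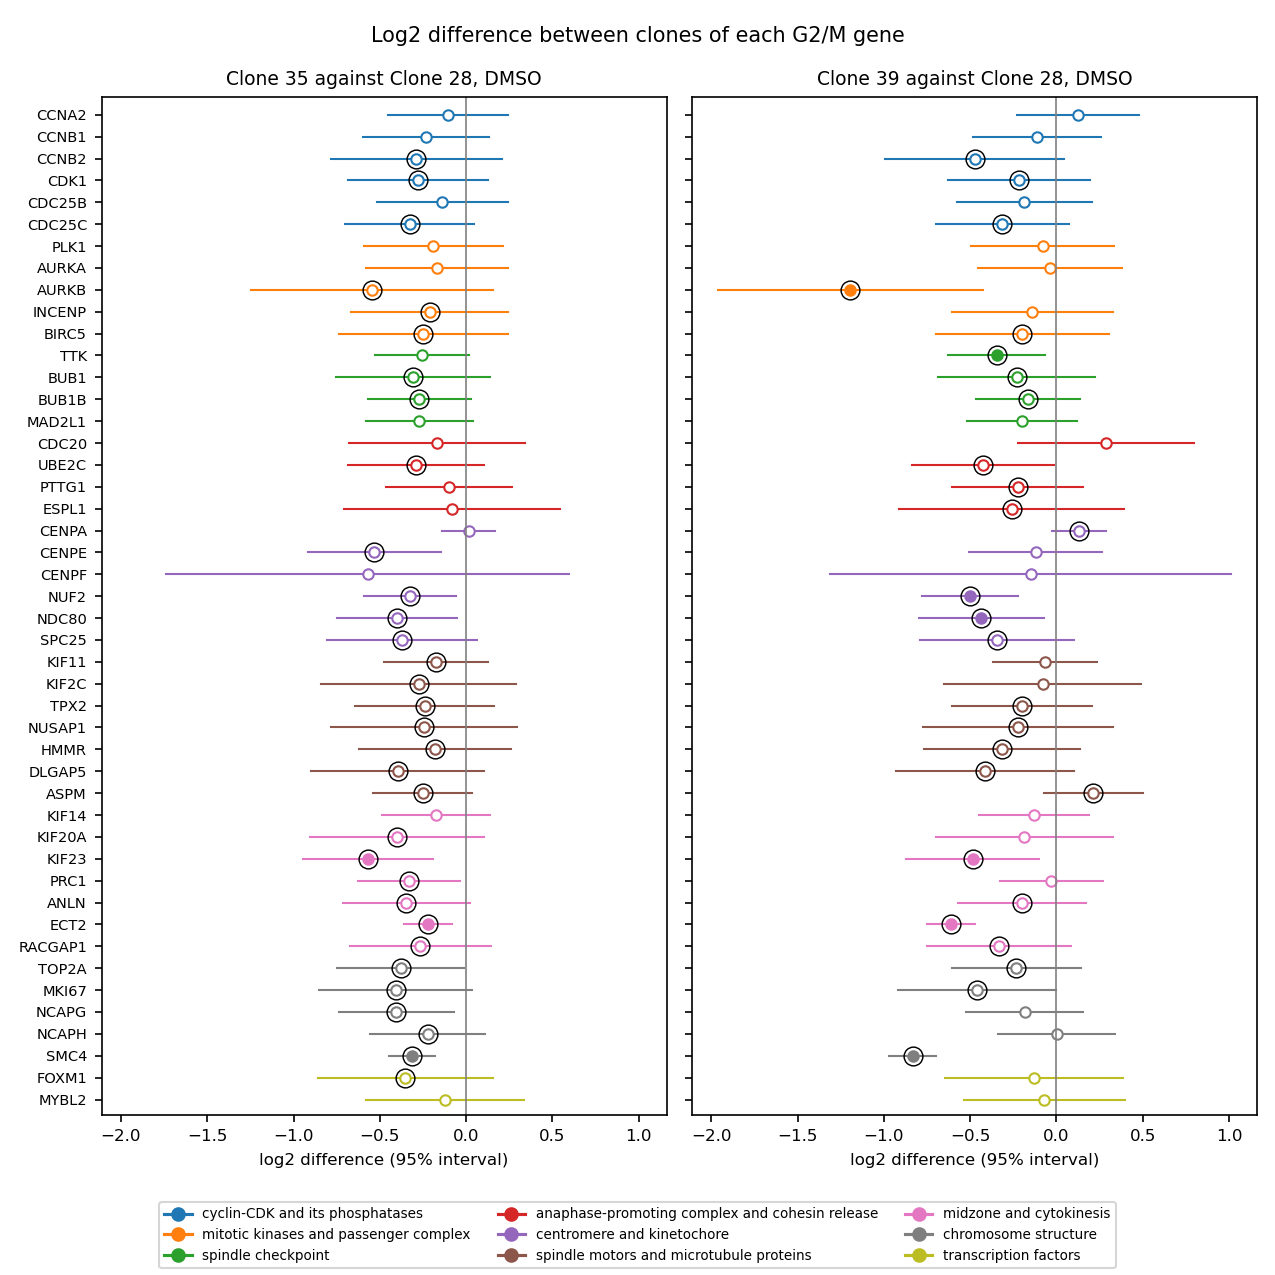
Points are log2 differences of the 46 members (rows, coloured by role) with 95% intervals, Clone 35 (left) and Clone 39 (right) against Clone 28 in DMSO; filled points passed an adjusted p of 0.1 and black rings mark those that passed with the replicate number in the fit. On the left 45 points lie below 0 with 3 filled and 32 ringed, and on the right 41 lie below 0 with 7 filled and 27 ringed.

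Between Clones 39 and 35, SMC4 (-0.52 ± 0.067) and ECT2 (-0.39 ± 0.069) were lower in Clone 39 (12.9% of all genes called lower) and ASPM was higher (0.47 ± 0.14, adjusted p = 0.0199, and 0.103 without the filter on low counts; 9.64% called higher). ASPM read 146, 161, 139 and 154 CPM in Clone 39 and 87.3, 120, 114 and 113 CPM in Clone 35 with no overlap. The median of the members was 0.07. With the replicate number in the fit 11 were higher (14% of all genes) and 3 lower (16.6%).

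The other genes of the pathway, and the G1/S genes, were tested in the same fits. With dTAG-13, 0 of 124 other G2/M genes and 0 of 42 G1/S genes were called. Between replicates 3 and 4 and replicates 1 and 2, 20.7% of all genes were called higher and 20.1% lower, the background for each list in this contrast. Of the 124 other G2/M genes, 89 were higher and 12 lower (median 0.20). The smallest p belonged to PKMYT1, a kinase that holds CDK1 inactive (0.60 ± 0.034), HJURP, the CENPA chaperone (0.66 ± 0.040), and FAM83D (0.54 ± 0.034). Of the 42 G1/S genes 39 were higher and 1 lower (median 0.26), led by RRM2, a ribonucleotide reductase subunit (0.45 ± 0.029), TK1 (0.46 ± 0.036) and E2F8 (0.57 ± 0.054). The 11 other MuvB and DREAM subunits had the smallest median among these groups, 0.06, with 5 higher and 2 lower, and the 26 other spindle and cytokinesis genes the largest, 0.35, with 23 higher. Against Clone 28 in DMSO, 10 of the 124 were lower and 1 higher in Clone 35 (3.01% and 2.24% of all genes), and 24 lower and 8 higher in Clone 39 (14.3% and 12.4%). Of the G1/S genes 7 were lower and 0 higher in Clone 35, and 11 lower and 1 higher in Clone 39.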

How the data were processed

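PRO-seq counts of 24 libraries of T47D dTAG-TRPS1 clones were used as deposited: whole-number counts of reads per gene in 1 table of 60605 genes. Per the labels and methods, the authors trimmed adapters with cutadapt 1.8.1 (versions from the submitters' processing notes), removed duplicates by the molecular identifier at the 3′ end of the RNA, discarded ribosomal reads, aligned to hg38 with Bowtie2 2.4.4, handled alignments with SAMtools 1.9 and counted with bedtools; the annotation and strand setting of the counting are not given in the sources used here. Each gene has 1 value, so paused and elongating polymerases are not separated. Gene names and places came from GENCODE v44, which matched 60463 of the IDs.

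Groups were taken from the sample titles. Genes were kept by filterByExpr (minimum count 10), scaled by TMM and tested with edgeR 4.0.16 (R 4.3.3, quasi-likelihood, robust), with Benjamini-Hochberg adjustment over 22326 genes and a threshold of 0.1. Treatment was fitted beside clone over 24 libraries; clones and single-clone responses came from a fit of 6 groups; replicate numbers were a term beside the 6 groups. CPM values are TMM-scaled, and a prior count of 2 was used for log2 CPM. Same-numbered treated and control dishes of a clone were collected together. Deviations from group means correlated at 0.185 on average over 12 such pairs (0.0926 to 0.318). Between DMSO libraries of other clones with the same number they correlated at 0.231 (0.135 to 0.352, all 12 pairs over 0.1). A block was therefore used as an alternative: the pair of clone and number for treatment, and the number for the clone comparisons. No replicates of a group were duplicates of each other: they differed by a chi-square of 1.64 to 13.6 per degree of freedom. Libraries of different groups were not compared in this way.

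The scripts were tested on simulated counts with 200 changed genes. For treatment and clones these counts held no effect of replicate number, so they do not show what the fits without the block can detect here. Alternatives were the block, a threshold of 0.05, other scaling, other filters, DESeq2 1.42.0, dTAG-13 libraries for the clones, and leaving out each library. The replicate contrast, the motifs, the members and the gene lists were chosen with earlier results of these data known. Genes were named if they passed (at most 8 per direction by p), if they had the 3 smallest p where fewer than 3 passed, or if they were on a list of 24 anchors; the members with the highest and lowest levels were also named. Of the other G2/M and G1/S lists at most 3 genes were named. Depth was 3226718 to 9575803 counts per library, and members had 27 to 3528 counts.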

Additional observations from a re-analysis of the deposited data

Results flagged for a closer look

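Among the 24 anchor genes and the G2/M score, 150 groups of 4 libraries were searched for a library far from the others; 9 were found, where about 1 in 20 groups, 7.5 here, stand out by chance. In 4 of them the gene was CENPF, with 459 CPM in Clone 28 DMSO replicate 1, 252 CPM in Clone 35 DMSO replicate 4, 482 CPM in Clone 39 DMSO replicate 1 and 879 CPM in Clone 39 dTAG-13 replicate 1. The other libraries of those groups read 178 to 184, 138 to 142, 132 to 141 and 147 to 152 CPM. CENPA was low in Clone 28 DMSO replicate 2 (63.3 CPM, others 77.3 to 78.1) and in Clone 39 dTAG-13 replicate 1 (72.7 CPM, others 79.8 to 80.7). CDC20 was low in Clone 39 dTAG-13 replicate 1 (11.96 CPM, others 16.9 to 17.2). CCNA2 was high in Clone 28 DMSO replicate 4 (24.2 CPM, others 18.1 to 19.1), and CDC25B in Clone 35 dTAG-13 replicate 4 (26.0 CPM, others 18.9 to 19.0). The G2/M score had no such library in any of the 6 groups.

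The difference between replicates 3 and 4 and replicates 1 and 2 was not the same in treated and control dishes for 2 of 46 members by edgeR's interaction test, a share close to the 4.7% of all genes called: CCNB2 at -0.38 on the log2 scale (adjusted p = 0.00432) and NUSAP1 at 0.20 (adjusted p = 0.0928), dTAG-13 minus DMSO.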

How the results depend on the processing

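The count of members called with dTAG-13 was 0 in the 3 clones together, in each clone and for the difference between clones under the replicate block, the stricter threshold, size factors or library totals, both filters, DESeq2 and the removal of any 1 library. The count for replicates 3 and 4 against 1 and 2 was 40 to 45 under these (the block does not apply) and in DMSO or dTAG-13 libraries alone, and the count for any difference between numbers was 42 to 46. Chosen after seeing the data, Clones 28, 35 and 39 alone gave 40, 40 and 32 for the replicate contrast. For these number contrasts the share of all genes called was counted in the main fit alone.

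The clone counts moved. For Clone 35 against Clone 28 (3 lower) the count was 32 with the replicate block, 1 at a threshold of 0.05, 1 with library totals, 1 in the dTAG-13 libraries, 33 in those with the block (chosen after seeing the data), and 1 to 4 without 1 library. For Clone 39 against Clone 28 (7 lower) it was 27 with the replicate block, 4 at a threshold of 0.05, 27 in the dTAG-13 libraries with the block, and 3 to 8 without 1 library. For Clone 39 against Clone 35 (3) it was 14 with the replicate block, 12 in the dTAG-13 libraries with the block and 3 to 4 without 1 library. The block changed no other count. Calls of single members were lost without 1 library in 14 of 24 fits for KIF23 and 5 for ECT2 (Clone 35 against 28), and in 6 for NDC80, 5 for KIF23, 4 for TTK and 1 for AURKB (Clone 39 against 28). In no alternative did a called member named here change sign. Small changes are limited by depth and spread. The median standard error of a member's log2 change for treatment was 0.11 without the block, where differences between replicate numbers stay in the error. It was smaller with the block.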
